A study of Mus musculus with 2 samples.

Results

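The let-7 family and its close relative miR-98 were measured in E13.5 mouse embryos, in a mammary gland (the 3rd) and in the piece of flank next to it that lies before the 4th gland. The labels call the first tissue 3rd mammary gland and the second a mammary flank region between the 3rd and 4th glands. The paper calls the second the inter mammary gland region. The tissues are called the gland and the flank here. The members are the 9 mature guide strands that the array names mmu-let-7a, mmu-let-7b, mmu-let-7c, mmu-let-7d, mmu-let-7e, mmu-let-7f, mmu-let-7g, mmu-let-7i and mmu-miR-98. They were taken by name from the 696 mouse miRNAs on the array. Both regions came from untreated ICR embryos, and 100 ng of total RNA per region was labelled with Cy3 and hybridized to 1 Agilent miRNA array. The sources used here do not give the number of embryos behind each RNA. With 1 array per region there is no replicate, so no difference between the regions was tested, and every error below is the spread over the spots of an array, which is technical only. The tissue was dissected whole, so fewer cells of a type and less miRNA per cell cannot be told apart.

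miRNAs of the let-7 family pair with messenger RNAs mainly through the seed, bases 2 to 8 from the 5′ end, and lower the translation and stability of their targets. The family is known for rising as embryonic cells leave the undifferentiated state, for repressing growth genes such as Hmga2, Myc and Ras genes, and for the RNA-binding proteins Lin28a and Lin28b, which block the maturation of its precursors and are in turn its targets. At E13.5 the mammary bud is a ball of epithelium wrapped in dense mammary mesenchyme, whereas the embryonic skin between the buds forms none. The dissected pieces are not taken to be skin alone, since muscle miRNAs were detected in both, as given below.

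The mature sequences of the members are shown because all 9 carry the same seed and differ only in the bases that the probes must tell apart. They are the RefSeq sequences of mouse assembly GRCm38.p6, 22 bases each, written 5′ to 3′ with the seed in capitals. All 9 members matched an entry.
let-7a: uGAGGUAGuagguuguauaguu
let-7b: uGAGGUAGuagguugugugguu
let-7c: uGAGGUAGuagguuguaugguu
let-7d: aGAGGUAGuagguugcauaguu
let-7e: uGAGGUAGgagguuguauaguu
let-7f: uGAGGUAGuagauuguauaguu
let-7g: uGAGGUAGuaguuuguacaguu
let-7i: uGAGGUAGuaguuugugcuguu
miR-98: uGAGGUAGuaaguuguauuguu

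Counted from 1 at the 5′ end, with the base of let-7a first, let-7c differed from let-7a by A19G, let-7e by U9G and let-7f by G12A. let-7b differed by A17G and A19G, let-7d by U1A and U16C, let-7g by G12U and U18C, and miR-98 by G11A and A19U. let-7i stood farthest from let-7a, with G12U, A17G, U18C and A19U.

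Each member was read by 2 probes of 10 spots each. Spots marked as outliers were left out, 1 of the 180 member spots on the array of the gland and 4 of 180 on the other. All 179 and 176 remaining member spots were well above background, and 0 of them were saturated. They ran from 183 to 6544 in background-subtracted signal in the gland and from 213 to 5981 in the flank, whereas the brightest negative control spots reached 17.3 and 19.2. The family is therefore read far above background on both arrays. The coefficient of variation over the spots of a member probe ran from 2.35% to 13.9%. To compare the arrays, the signals of each were divided by the array's own 75th percentile over the probes that both arrays detected, 786 for the gland and 719 for the flank, and the result is called the scaled signal.

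The members differed from each other in ratio on these 2 arrays. On the log2 scale of the scaled signals, gland over flank, the 9 members had a median of -0.05, against 0.05 for the 284 miRNAs detected on both arrays, all 9 members among them. The member ratios ran from -0.46 for let-7i to 0.24 for let-7e, an SD of 0.25 among members whose own standard errors over spots were 0.03 to 0.05. Those errors do not cover differences between arrays or samples. Over all 284 miRNAs the SD was 0.66. At 1.5-fold or more 0 of the 9 members were higher and 0 were lower in the gland, where 2.11% of the 284 were higher and 9.15% lower. At a looser threshold, a signal 25% above that of the dimmer array, 0 members were higher and 2, let-7d and let-7i, were lower, beside 13.4% of all 284 higher and 15.1% lower. The side of 0 on which the family median fell depended on the scaling. It was 0.08 with no scaling, 0.11 when the 75th percentile was taken over all probes, 0.07 when each array was divided by its median over the probes that both detect and 0.09 after quantile normalization. The median of all miRNAs moved as well under these scalings, to between 0.17 and 0.21. Relative to it, the family median stood at -0.12 to -0.08 over all 15 alternatives.

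**Figure D1:**
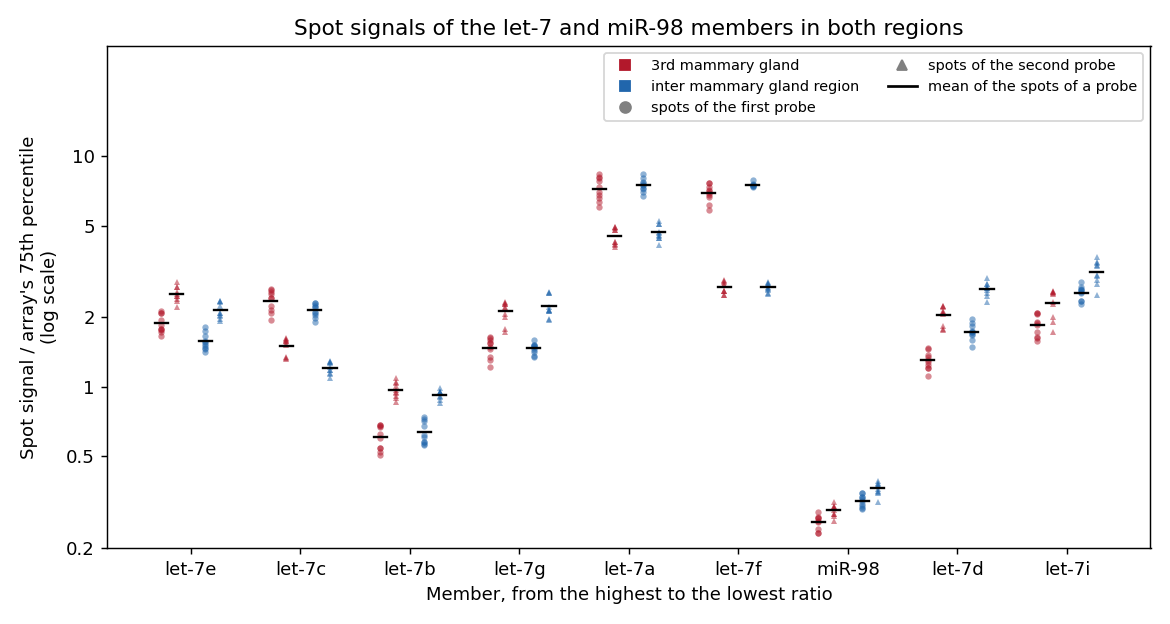
Scaled signal of every spot used, on a log axis, for each member in the gland (red) and the flank (blue), with circles and triangles for the first and second probe and black lines for probe means. For let-7d, let-7i and miR-98 the red spots lie mostly under the blue ones, for let-7e and let-7c mostly above them, and for the other 4 members the spot ranges overlap for both probes.

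let-7i, let-7d and miR-98 were the members with the lowest ratios, and each was read lower in the gland by both of its probes. let-7i had a signal before scaling of 1637 ± 47.1 (SE over spots) in the gland and 2053 ± 45.4 in the flank, which after scaling is 1.37-fold lower in the gland (log2 ratio -0.46 ± 0.05). Of its 20 pairs of spots at the same position on both arrays, 19 were dimmer in the gland after scaling. All spot pairs here are compared in scaled signal. Its probes gave log2 ratios of -0.47 and -0.45.

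let-7d had a signal of 1317 ± 27.2 in the gland and 1578 ± 25.5 in the flank, 1.31-fold lower after scaling (log2 ratio -0.39 ± 0.04). All 20 of its spot pairs were dimmer in the gland, and for both probes the scaled spots of the regions did not overlap. For the first probe they ran from 1.12 to 1.48 in the gland and from 1.49 to 1.96 in the flank. miR-98, the dimmest member, had 217 ± 3.25 and 246 ± 3.34, 1.24-fold lower after scaling (log2 ratio -0.31 ± 0.03). All 19 of its spot pairs were dimmer in the gland, and its probes gave -0.31 and -0.32. Under each of the 15 alternative settings of scaling, signal, averaging and detection, these 3 were the lowest members, with log2 ratios under 0. Settings that only divide an array by another number or change detection cannot alter the order of the members. The software's total signal and the deposited values, counted as separate alternatives, gave the same member ratios. The ranges were -0.52 to -0.28 for let-7i, -0.45 to -0.23 for let-7d and -0.38 to -0.16 for miR-98.

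let-7e and let-7c had the highest ratios. let-7e had a signal of 1734 ± 31.7 in the gland and 1337 ± 23.7 in the flank, 1.18-fold higher after scaling (log2 ratio 0.24 ± 0.04). Its probes gave 0.26 and 0.24, and all 20 of its spot pairs were brighter in the gland, although the spot ranges of the regions overlapped for both probes. let-7c had 1522 ± 33.9 and 1206 ± 17.6, 1.15-fold higher after scaling (log2 ratio 0.21 ± 0.04). All 20 of its spot pairs were brighter in the gland. Its probes differed from each other, at 0.14 and 0.31, a gap of 0.17 with a standard error of 0.07. These were the highest 2 members under all 15 alternatives, several of which cannot alter the order. Their log2 ratios were 0.18 to 0.42 for let-7e and 0.14 to 0.37 for let-7c. Of the 284 miRNAs, let-7e stood at percentile 76.8 of the ratios and let-7i at percentile 10.2, both inside the central 90% of the miRNAs detected on both arrays.

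let-7b, let-7g, let-7a and let-7f lay between these members. let-7a, the brightest member, had a signal of 4618 ± 111 in the gland and 4369 ± 67.2 in the flank, a log2 ratio after scaling of -0.05 ± 0.04, with both probes at -0.05. let-7f had 3783 ± 76.4 and 3671 ± 26.9, higher in the gland before scaling and lower after it (log2 ratio -0.09 ± 0.03). After scaling, 12 of its 17 spot pairs were dimmer in the gland, and its probes gave -0.12 and -0.002. let-7g had 1416 ± 32.6 and 1333 ± 28.6 (log2 ratio -0.04 ± 0.05). let-7b had 620 ± 13.0 and 561 ± 9.56 (log2 ratio 0.01 ± 0.04). The probes of let-7b fell on opposite sides of 0, at -0.07 and 0.07, as did those of let-7g, at 0.01 and -0.08. The ratios of let-7a, let-7b and let-7g lay within 2 standard errors of 0, and that of let-7f did not. The probes of let-7f differed from each other by 0.12 with a standard error of 0.05, and its second probe alone lay within 2 standard errors of 0. The sign of each of these 4 ratios changed with the setting. let-7a and let-7f were above 0 under 4 of 15 alternatives, let-7g under 6 and let-7b under 9. Relative to the median of all miRNAs, which moves with the scaling too, let-7f and let-7g were lower under all 15, let-7a under 14 and let-7b under 13.

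**Figure D2:**
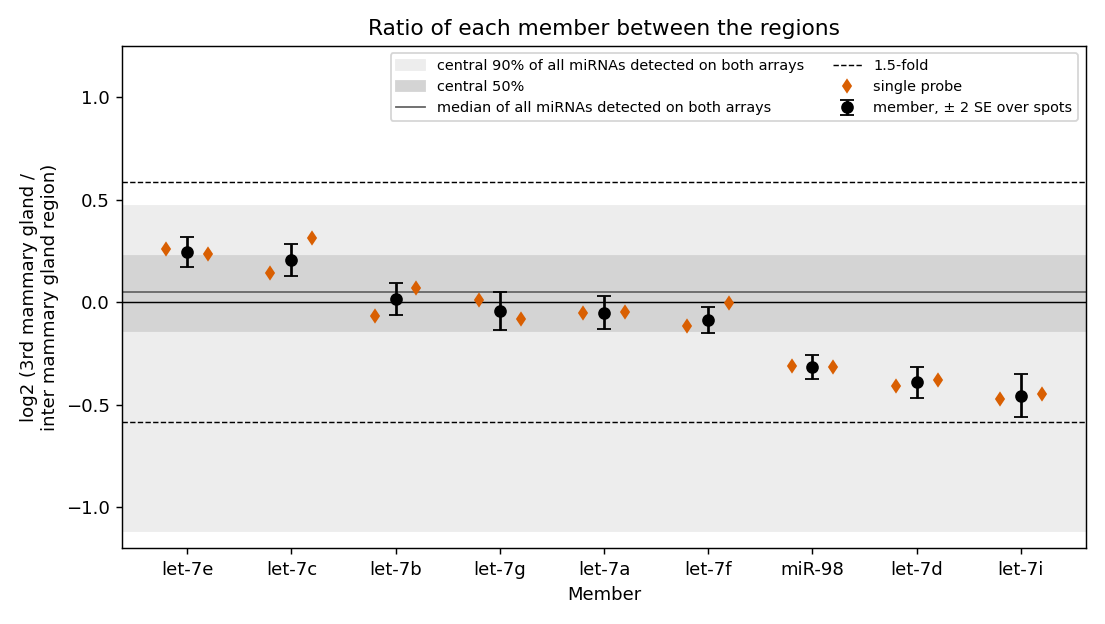
log2 ratio of each member, gland over flank (black, ± 2 SE over spots), and of its single probes (orange), over the central 50% and 90% of the 284 miRNAs detected on both arrays (grey bands) with 1.5-fold as dashed lines. Members run from 0.24 for let-7e to -0.46 for let-7i, all inside the 1.5-fold lines.

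In the order let-7e, let-7c, let-7b, let-7g, let-7a, let-7f, miR-98, let-7d and let-7i, neighbours differed by more than 2 standard errors at only 2 of the 8 steps. These were the step of 0.19 ± 0.05 from let-7c to let-7b and that of 0.23 ± 0.04 from let-7f to miR-98. Both steps depended on the setting. With the brightest probe of each miRNA the step from let-7c to let-7b was 0.07, and with normexp background correction that from let-7f to miR-98 was 0.13, the lowest values over the 15 alternatives, and their highest were 0.38 and 0.32. Members that are not neighbours could differ by more than 2 standard errors between these steps, as did let-7b and let-7f (0.10 ± 0.05) and miR-98 and let-7i (0.14 ± 0.06). From let-7e to let-7i the distance was 0.70 ± 0.06 on the log2 scale, or 1.63-fold. This distance needs no scaling between the arrays, since dividing an array by 1 number leaves it as it is, and it was 0.67 to 0.78 over the 15 alternatives. Of the 36 pairs of members, 28 differed in log2 ratio by more than 2 standard errors over spots. Such pairs were not counted over all miRNAs detected on both arrays, whose ratios spread more widely (SD 0.66 against 0.25). The count therefore does not set the family apart.

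Members with nearly the same sequence did not always have the same ratio. Among the 4 pairs that differ by a single base, let-7a and let-7f were 0.04 ± 0.05 apart, whereas let-7a and let-7e (U9G) were 0.30 ± 0.06 apart, let-7a and let-7c (A19G) 0.26 ± 0.06, and let-7b and let-7c 0.19 ± 0.05. Of the most distant sequences, let-7d and let-7i, which differ by 6 bases, the most of any pair, were 0.07 ± 0.06 apart, and let-7e and let-7i, the only pair that differs by 5, were farthest apart, at 0.70 ± 0.06. The median gap was 0.22 over the 4 pairs with a single differing base, 0.28 over the 10 with 2, 0.30 over the 11 with 3 and 0.35 over the 9 with 4. Pairs share members and are not independent, so these medians are a description. Binding of a member to the probes of another was not tested, and the probe sequences were not used here.

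In the make-up of the family, let-7d, let-7i and miR-98 together held 23.7% of the family signal in the flank and 18.8% in the gland. let-7c and let-7e together held 15.5% in the flank and 19.3% in the gland. A share here is a share of the summed scaled signal of the 9 members, not of molecules, because probes differ in brightness, so only its change between the arrays compares. let-7a made up 27.4% ± 0.51 (SE over spots) of the signal in the gland and 26.7% ± 0.32 in the flank. let-7f made up 22.4% ± 0.40 in the gland and 22.4% ± 0.18 in the flank. Together these members held 49.8% and 49.2% of the family signal. let-7i fell from 12.6% ± 0.25 in the flank to 9.71% ± 0.27 in the gland, a change of -2.85 percentage points. let-7d went from 9.65% ± 0.15 to 7.81% ± 0.17 and miR-98 from 1.5% ± 0.02 to 1.28% ± 0.02. In the other direction let-7e went from 8.17% ± 0.14 to 10.3% ± 0.19, a gain of 2.10 percentage points, and let-7c from 7.37% ± 0.11 to 9.03% ± 0.20. Summed over members, the scaled signal of the gland was 0.942 times that of the flank (log2 ratio -0.09 ± 0.02). The side of 1 on which this ratio falls depends on the scaling, which the error does not cover. The members held 5.44% of the scaled signal of all 284 miRNAs in the gland and 5.15% in the flank. This share is not changed by dividing an array by 1 number, and it went the other way.

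**Figure D3:**
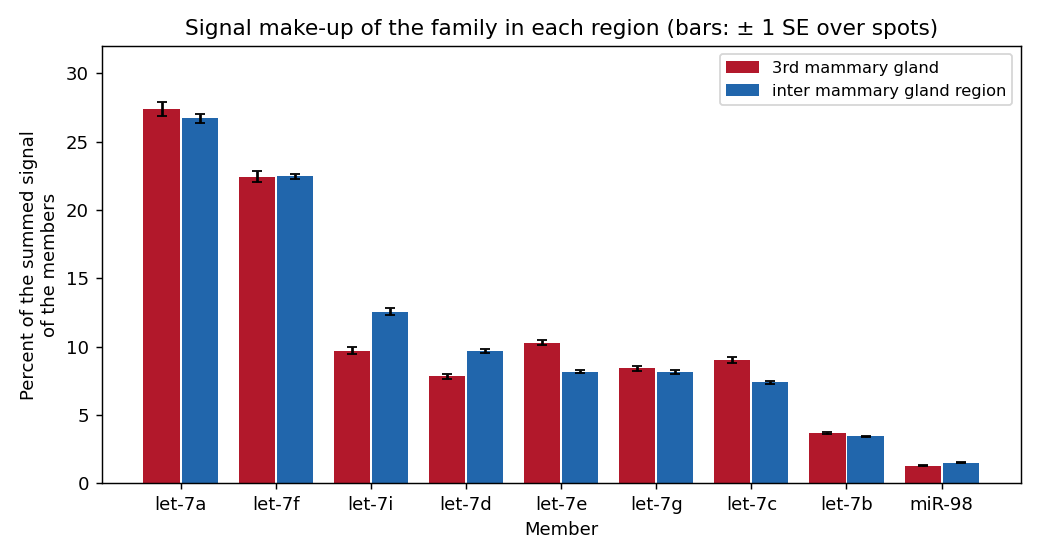
Percent of the summed scaled signal of the 9 members taken by each, in the gland (red) and the flank (blue), with bars of ± 1 SE over spots. let-7a and let-7f take the most in both regions, let-7e and let-7c take more in the gland, and let-7i and let-7d take more in the flank.

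The members are encoded by 12 hairpin genes at 8 places of the GRCm38.p6 assembly, several of them beside other miRNAs. let-7e is encoded at chr17:17830188-17830879, within the span of the gene Spaca6, together with miR-99b and miR-125a. The 3 mature guide strands of this cluster had log2 ratios of 0.16 ± 0.03 for miR-99b, 0.24 ± 0.04 for let-7e and 0.28 ± 0.03 for miR-125a-5p. let-7c comes from a hairpin with miR-99a and miR-125b-2 at chr16:77598936-77646343 and from another beside let-7b at chr15:85706603-85707403, within the long noncoding RNA gene Lncppara. Here miR-99a had 0.57 ± 0.03, with signals before scaling of 574 and 355, and miR-125b-5p 0.41 ± 0.04, with 8333 and 5721, both further from 0 than the 0.21 of let-7c and the 0.01 of let-7b. miR-125b-5p is also made at chr9:41531425-41582002, in the noncoding gene Mir100hg, with let-7a-2 and miR-100, where miR-100 had 0.06 ± 0.05. These 5 partners belong to the miR-99/miR-100 and miR-125 families and do not carry the let-7 seed. Their median log2 ratio was 0.28, beside 0.05 for the 284 miRNAs detected on both arrays. At 1.5-fold or more 0 of the 5 were called, where 2.11% of the 284 were higher in the gland and 9.15% lower. The partners were read with the main scaling only.

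Of the 3 members with the lowest ratios, let-7d and miR-98 share their places with let-7a or let-7f, whose ratios were less low. let-7d lies with let-7a-1 and let-7f-1 at chr13:48536012-48538272, and its ratio was -0.39 where those of let-7a and let-7f were -0.05 and -0.09. miR-98 lies with let-7f-2 at chrX:151912346-151913321, within the span of Huwe1, a ubiquitin ligase gene. let-7i lies alone at chr10:122985640-122985724, and let-7g alone at chr9:106178840-106178927 within the span of Wdr82. Since let-7a, let-7c, let-7f and miR-125b-5p each come from 2 hairpins with the same mature sequence, the array cannot tell which place gave their signal. The table used for positions gives gene spans only, so exons and introns were not told apart.

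**Figure D4:**
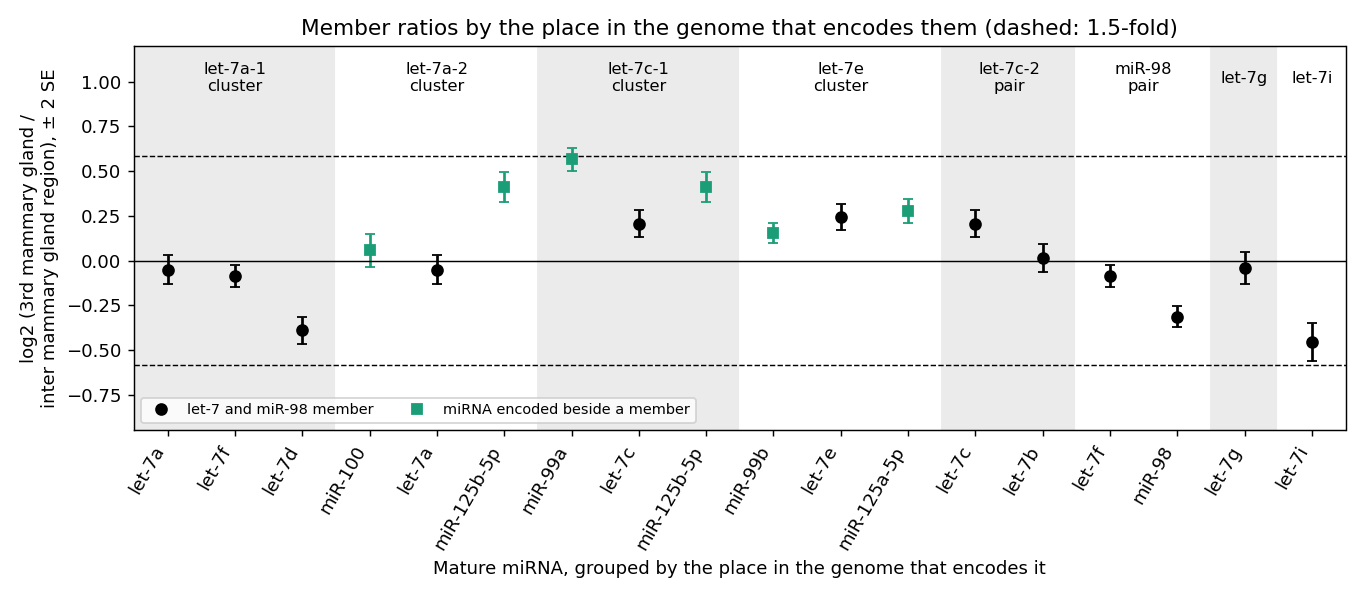
log2 ratio, gland over flank (± 2 SE over spots), of each member (black) and of the miRNAs encoded beside it (green), grouped by cluster, with a miRNA from 2 places drawn at each. In the let-7e cluster the 3 miRNAs lie from 0.16 to 0.28, whereas let-7d lies at -0.39 beside let-7a and let-7f at -0.05 and -0.09.

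The passenger strands, the other arm of each let-7 hairpin and usually degraded, were near background. Of the 7 on the array, only let-7a* was detected in both regions, with 5 of its 20 spots well above background in the gland and 3 of 20 in the flank, all of them on the same probe. Its signal was 15.4 ± 0.86 in the gland and 9.53 ± 0.87 in the flank, under the brightest negative control spots of both arrays, and its log2 ratio of 0.57 ± 0.15 is limited by that. The other 6, let-7b*, let-7c-1*, let-7d*, let-7f*, let-7g* and let-7i*, had 0 spots well above background on either array. Of the 11 mature mouse names in RefSeq with this seed, 10 are on the array, and the only one beyond the members is miR-1961, which had 0 of 18 and 0 of 20 spots well above background in the gland and the flank.

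Other tissue-linked miRNAs differed between the regions, and their part in the member ratios was not tested. The muscle miRNAs miR-1, miR-133a, miR-133b and miR-206 were all lower in the gland by 1.5-fold or more. Of the 284 miRNAs detected on both arrays, 9.15% were that much lower and 2.11% that much higher. The 4 muscle miRNAs had log2 ratios from -1.43 to -1.12 and summed signals before scaling of 1646 against 3610. Of 7 epithelial miRNAs (the miR-200 family with miR-141 and miR-429, miR-203 and miR-205), 0 reached 1.5-fold, and the median was 0.34, with a range from -0.31 for miR-203 to 0.51 for miR-200a. For blood, miR-144, miR-451 and miR-486 ran from -0.39 to 0.44, and the vessel miRNA miR-126-3p had 0.05. Neural miR-9 and miR-124 were not detected in either region. The lowest member ratio, -0.46, was nearer to 0 than that of any of the 4 muscle miRNAs.

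The 3 other miRNAs of at least the brightness of the dimmest member whose log2 ratio lay nearest to the family median were miR-196a at -0.05, miR-434-5p at -0.05 and miR-210 at -0.05, out of 135 considered. With 2 arrays this likeness is in a single ratio only.

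**Figure D5:**
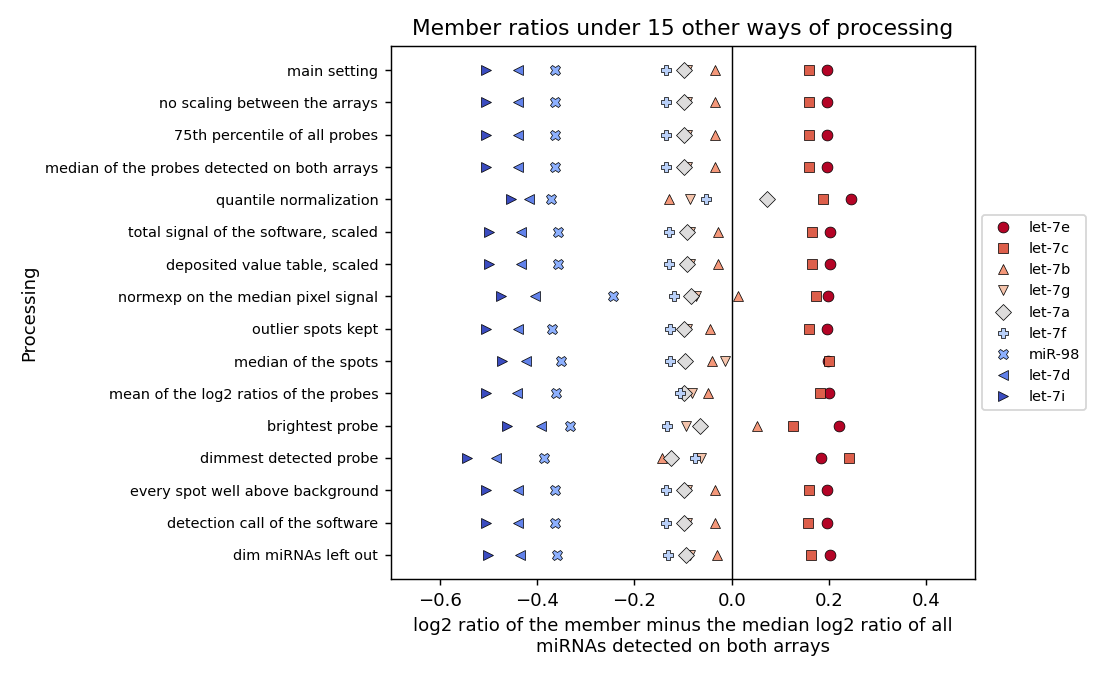
log2 ratio of each member minus the median of all miRNAs detected on both arrays, under the main setting and 15 alternatives. let-7e and let-7c stay to the right of 0 and let-7i, let-7d and miR-98 form the leftmost group under every setting, and let-7a and let-7b cross 0 in 1 and 2 of the 15.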

How the data were processed

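Total RNA of each region was hybridized to 1 Agilent 1-colour miRNA array, and both arrays lay on 1 slide. Agilent Feature Extraction (the file headers give 10.7.3.1) was the authors' spot software, and they deposited a background-subtracted intensity for each spot and a total signal for each miRNA, neither scaled between arrays. The deposited table holds the same totals for all 696 miRNAs, with 0.1 for one not called detected. The authors name GeneSpring GX for normalization, which these values do not carry.

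From the spot intensities, outlier and control spots were left out, spots of a probe were averaged, arrays were divided by the 75th percentile of probes detected on both, and the mean of its probes was taken for each miRNA. Detection of a probe meant more than 50% of its spots well above background, and of a miRNA at least 1 such probe. Standard errors were propagated from the spots, covering technical error only. The number of arrays limits the precision. Named miRNAs were the members, their passenger strands, cluster partners, other miRNAs with the seed, the 3 nearest in ratio and the tissue lists. Members and lists were chosen with earlier results of these data known. The steps were tested on simulated data. The alternatives covered scaling, signal column, background, outliers, averaging, detection, dim miRNAs and threshold. Python 3.11.15, numpy 2.4.6, pandas 2.3.3, matplotlib 3.10.9, R 4.3.3 and limma 3.58.1 were used.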

Additional observations from a re-analysis of the deposited data

How the results depend on the processing

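No paired analysis was possible because only 1 array was hybridized per region. The family median log2 ratio of -0.05 is that of let-7a, whose standard error over spots, 0.04, was used to judge moves of the median. The median moved by more than that under the following settings. It was 0.080 with no scaling and 0.11 when the 75th percentile was taken over all probes. It was 0.068 when arrays were divided by their median over the probes that both detect. After quantile normalization it was 0.087, and when detection asked for all spots of a probe it was -0.11. For the members, all of these settings except quantile normalization change only the number that divides each array. Under them the family median minus the median of all miRNAs stayed at -0.098, its value under the main setting. It was -0.086 after quantile normalization, where the cause of the move was not tested. The count of members past the threshold stayed at 0 under 15 alternatives and at 2-fold, and was 2 at the 25% threshold, which raises it by construction. Of all 284 miRNAs, 0 were higher and 16 lower at 2-fold. Under the 15 alternatives 2 to 19 miRNAs were higher and 18 to 38 lower at 1.5-fold. The number detected on both arrays, of which these are a part, ran from 247 to 323 with the setting. With so small a part of all miRNAs past the threshold, a count of 0 among so few members does not set the family apart. The distance between the highest and lowest member, 0.70, was 0.78 with the dimmest detected probe of each miRNA. With that probe let-7e gained 2.36 percentage points of the family signal and let-7i changed by -3.69, and with the brightest probe let-7i changed by -2.37. Of the 135 single member ratios over the alternatives, 61 moved by more than their standard error and 74 did not. With normexp background correction miR-98, the dimmest member, moved from -0.31 to -0.22, and the other 8 stayed within their standard error. Signal near background limits let-7a*.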

Other observations

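The let-7 family had the widest range of ratios among the 5 miRNA families with at least 4 lettered members detected on both arrays. These families were grouped by name after the member values had been seen, and no test was run. The 8 let-7 members ran over 0.70 on the log2 scale, with an SD of 0.25. The 4 miR-181 members ran over 0.44 (SD 0.22) around a median of 0.41, the 5 miR-30 members over 0.44 (SD 0.16) around 0.25, and the 4 miR-467 members over 0.45 (SD 0.18) around 0.09. The 4 miR-669 members lay within 0.12 of each other (SD 0.054). A range grows with the number of members, and let-7 has the most. With the scaling used, the miR-181 members ran from 0.26 to 0.70 and the miR-30 members from 0.001 to 0.44. The let-7 members lay on both sides of 0, as did the miR-467 members, from -0.13 to 0.31.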
